A study of Mus musculus with 6 samples.

Results

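Heat shock and endoplasmic reticulum (ER) chaperone genes were examined in mouse C3H myotubes after knockdown of the H19 long noncoding RNA. They were taken by gene symbol alone, as the families of HSP70, HSP90, small heat shock, J-domain, chaperonin, BAG and FKBP proteins, the heat shock factors, and the ER genes for folding, translocation and degradation. Of the 2549 features that carry a symbol in the authors' deposited table, 23 are such genes. Myotubes, the multinucleated cells that C3H myoblasts form in differentiation medium, were transfected at 40 h of differentiation with either a control siRNA (siCon) or 1 siRNA against H19 (siH19), and total RNA was sequenced 48 h later from triplicate transfections of each group. All 6 libraries come from 1 cell line with no other treatment. Levels are in FPKM, fragments scaled to transcript length and to sequencing depth, and the table holds a single log2 value for each group in place of its 3 libraries. Neither the spread between libraries nor their depth can be seen from it, and no test was run here. Only features that the authors called significant are listed, so each of the 23 had to differ between the groups, and a gene that is not listed may be unchanged, too low to test or not testable.

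Chaperones bind unfolded stretches of other proteins and keep them from aggregating until they fold. HSP70 proteins do so in cycles of ATP hydrolysis, in which J-domain proteins deliver the client and trigger hydrolysis, and exchange factors such as the BAG proteins release it. Small heat shock proteins hold clients without ATP, and in muscle several of them protect the contractile apparatus. In the ER, the HSP70 protein BiP, disulfide isomerases and lectins fold secreted proteins, which enter through the SEC61 channel and are sent back to the cytosol for degradation when they fail. Heat shock factors bind the heat shock element in promoters of cytosolic chaperone genes, and the unfolded protein response acts on ER genes through the ER stress element.

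The promoter stretches below are shown because they hold letter matches to these response elements in the more abundant genes. Hspb3 and Dnajc27 also have a match to the heat shock element and are not printed. They are RefSeq sequences of GRCm38.p6, the mouse assembly also called mm10, from the 250 bases before an annotated start of transcription, with bases counted back from 1 at the base before it. Capitals mark the matches, and stretches that GENCODE annotates as exon are cut to at most 30 bases. The matches of Hspd1, Sec62 and Dnaja1 and the ER stress element of Hspa5 overlap such exons. Numbers of heat shock elements below are numbers of pattern matches. Overlapping matches share bases within 1 run and are not separate elements.
Hspb1, chr5:135887669-135887918, plus strand, 2 heat shock elements: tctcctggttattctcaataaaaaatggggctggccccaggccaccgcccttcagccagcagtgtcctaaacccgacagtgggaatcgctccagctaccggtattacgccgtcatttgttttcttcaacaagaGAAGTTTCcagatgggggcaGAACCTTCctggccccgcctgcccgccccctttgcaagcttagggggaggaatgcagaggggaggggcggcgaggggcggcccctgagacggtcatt
Hspd1, chr1:55088053-55088082, minus strand, 3 overlapping heat shock elements: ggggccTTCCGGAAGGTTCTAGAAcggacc
Sec62, chr3:30792680-30792708, plus strand, 2 overlapping heat shock elements: ttggtctaGAAAGTTCTGGAAtaatagtc
Dnaja1, chr4:40722333-40722362, plus strand, 1 heat shock element: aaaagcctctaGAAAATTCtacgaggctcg
Hspa5, chr2:34771840-34771969, plus strand, 1 core of the unfolded protein response (UPR) element: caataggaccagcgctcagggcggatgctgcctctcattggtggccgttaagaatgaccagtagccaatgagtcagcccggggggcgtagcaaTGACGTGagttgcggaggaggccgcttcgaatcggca
Hspa5, chr2:34772020-34772048, plus strand, 1 ER stress element: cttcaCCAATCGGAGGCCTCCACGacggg

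The targeted RNA was low in siH19. The log2 FPKM of H19 was 11.20 in siCon, and it fell by 3.70 in siH19, to 7.69% of the siCon level. The cells expressed markers of myotubes. For 12 marker genes, 8 features were listed, with a siCon log2 FPKM from 6.91 (Ckm) to 11.30 (Acta1, skeletal muscle actin). All 8 were higher in siH19, by 0.38 (Chrna1) to 2.28 (Actc1) on the log2 scale, where 60.1% of all listed features with a symbol were higher. The value of Chrna1 lies under the median difference of those features, 0.41. Of the 8, 1 is a joint feature of Myh1, Myh2, Myh3, Myh4 and Myh8, and stands for both markers Myh3 and Myh8. Of the 8 markers of undifferentiated myoblasts and dividing cells, 1 was listed, Myf5, with a difference of -0.38, and of 6 fibroblast markers 1 was listed, Col1a1, with 0.41. No marker of adipocytes, endothelial or immune cells was listed. Being listed shows a difference between the groups, so a marker that is not listed may be expressed or absent.

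The 23 chaperone genes differed in both directions. In siH19, 12 were higher and 11 lower (52.2% higher), against 60.1% higher among all listed features with a symbol. A difference of at least 1.5-fold (0.585 on the log2 scale) was reached by 6 of them. These were Sec61a2, Dnaja1, Hspb7 and Hsf4, which were higher, and Dnajc12 and Dnajc22, which were lower. They make up 26.1% of the 23, against 47.0% of all listed features with a symbol, and by direction 4 were higher (background 30.8%) and 2 lower (background 16.3%). The balance depends on scaling: with differences centred on the median of the listed features with a symbol (0.41) or on the shift of their upper quartile (0.29), 1 was higher and 11 lower. Sec61a2 stayed past the cut-off, while Dnaja1 (0.46 and 0.58), Hspb7 (0.40 and 0.52) and Hsf4 (0.27 and 0.39) did not. Among all listed features with a symbol, 9.73% were higher and 39.9% lower under the first centring, and 12.8% and 39.9% under the second. Both shifts take every lower one of these features past the cut-off, so that the balance of the centred counts is set largely by the shift. The median absolute difference of the 23 was 0.48, against 0.56 for all listed features with a symbol. The median signed difference, 0.39, is the value of Bag2, the smallest of the positive differences, and falls to 0.03 when the joint feature of Dnaja1 and Mir207 is left out. Differences were taken between values rounded to 2 decimals, so that each is uncertain by 0.01, and Fkbp1a at 0.58 and Sel1l at 0.57 lie just under the cut-off. Lower levels of an mRNA in these bulk libraries may come from fewer cells of a type or from less RNA per cell, which cannot be told apart.

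**Figure D1:**
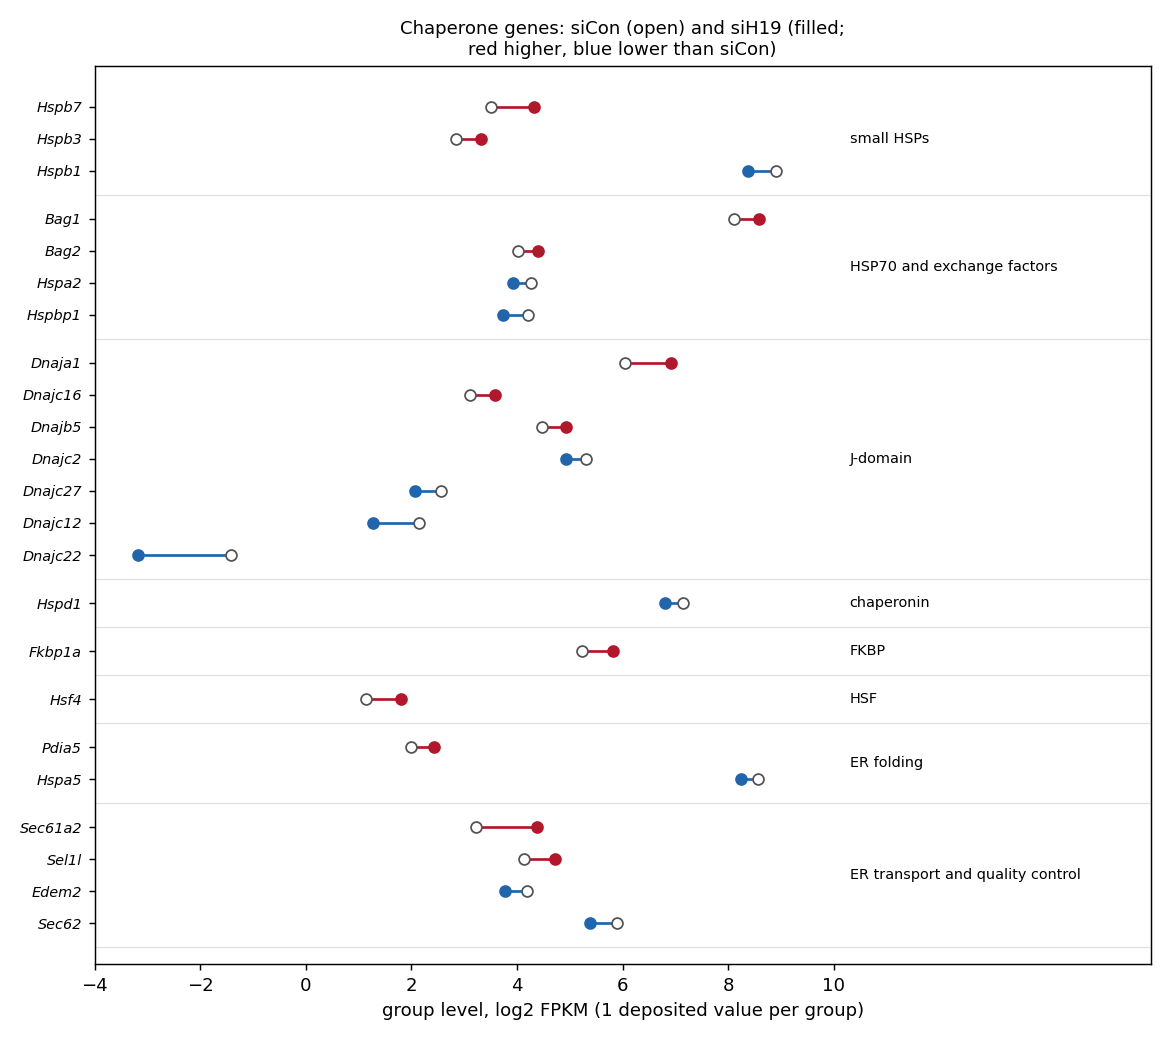
Group levels of the 23 chaperone genes in log2 FPKM (horizontal axis), with siCon as open and siH19 as filled circles, red where siH19 is higher and blue where it is lower, ordered by role. Each circle is 1 deposited value per group with no error. Levels run from -3.18 (Dnajc22, siH19) to 8.90 (Hspb1, siCon), and most lines are short beside that range.

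The most abundant of these chaperones differed in both directions. The 5 with the highest siCon level were Hspb1, Hspa5, Bag1, Hspd1 and Dnaja1, with log2 FPKM from 6.05 to 8.90, and 3 of the 5 were lower, against 39.9% of all listed features with a symbol. Summed on the linear FPKM scale, which is per length of transcript, the 23 genes came to 1643 FPKM in siCon and 1578 in siH19, or 96.0% of the siCon level, while the sum over all listed features with a symbol stood at 127%. The 18 other members summed to 302 FPKM in siCon and 327 in siH19. The most abundant genes weigh most in such sums. The 23 genes were on the whole more abundant than the listed features, with a median siCon log2 FPKM of 4.18 against 3.30, and 6 of them lay in the top 10% of siCon levels.

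**Figure D2:**
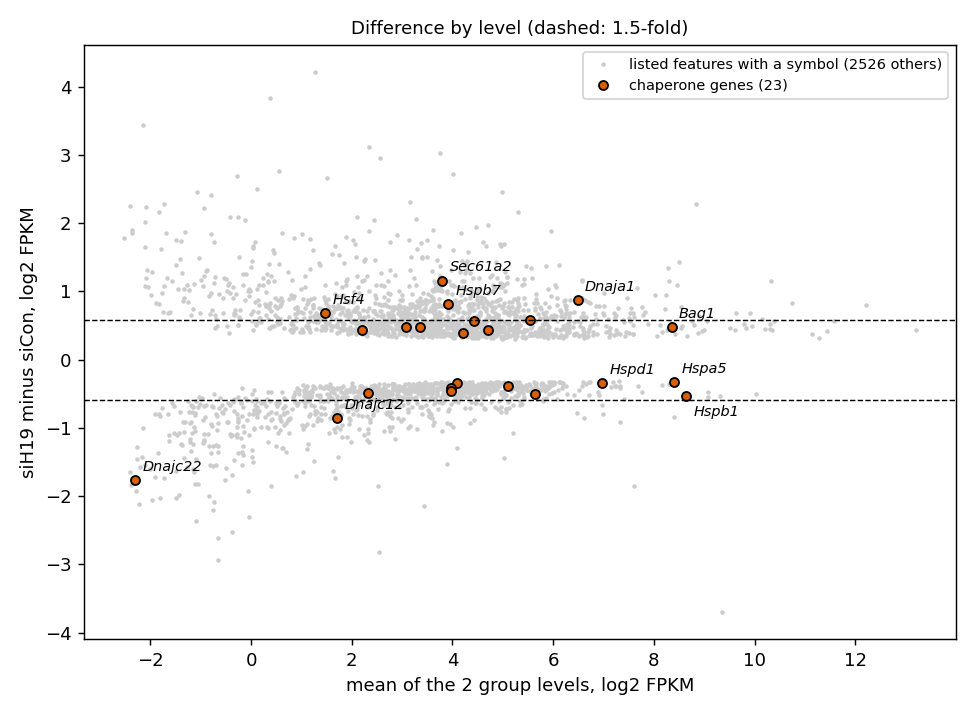
Difference of siH19 minus siCon in log2 FPKM (vertical) against the mean of both group levels (horizontal) for the 23 chaperone genes (orange) and the 2526 other listed features with a symbol (grey), with dashed lines at 1.5-fold. The band around 0 is empty because only features called by the authors are listed. The abundant members at the right, Hspb1, Hspa5, Hspd1 and Bag1, lie within the dashed lines.

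Across the families, 23 of the 139 annotated protein-coding genes with a matching symbol were listed (16.5%), against 11.1% of all annotated protein-coding genes. The remaining 116 may include genes that are not expressed in myotubes. The counts of listed genes in the groups that follow stand beside this 11.1%, and their counts of higher genes beside the 60.1% of all listed features with a symbol. The groups are small, and nothing is read from these counts about any one group.

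Of the small heat shock proteins, 1 was lower and 2 were higher. Hspb1 (HSP27), an actin-protecting chaperone found in most cells, was the most abundant of the 23 genes, at 478 FPKM in siCon and 331 in siH19 (log2 FPKM 8.90 and 8.37, a difference of -0.53). It lies on chromosome 5 (135887919 to 135889563 in mm10, plus strand). Hspb7, a chaperone of heart and skeletal muscle, was 1.75-fold higher in siH19, at 4.32 log2 FPKM against 3.51, a difference of 0.81 that is 0.40 after centring on the median. It lies on chromosome 4 from 141420779 to 141425950, on the plus strand, with 3 exons. Hspb3, which pairs with Hspb2 in muscle, went from 2.84 to 3.32, a difference of 0.48 that is 0.07 after the same centring. Because Hspb1 is by far the largest of the 3, their summed level was 496 FPKM in siCon and 361 in siH19, or 72.7%. The myotube markers moved in the same direction as Hspb7 and Hspb3, by 0.38 to 2.28, and their part in these differences was not tested. Of 9 annotated genes with an Hspb symbol or named Cryab, these 3 are listed. Cryab, Hspb2, Hspb6 and Hspb8, which muscle also expresses, are not.

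In the HSP70 group, 2 exchange factors were higher and 1 lower. Bag1, which releases clients from HSP70 and couples it to the proteasome, was among the most abundant genes, at 276 FPKM in siCon and 385 in siH19 (log2 FPKM 8.11 and 8.59). Bag2, which also inhibits the ubiquitin ligase CHIP, was at 4.01 and 4.40 on the log2 scale. Hspbp1, an exchange factor that likewise restrains CHIP, went the other way, from 4.20 to 3.74. These 3 differences were therefore 0.48, 0.39 and -0.46, all under 1.5-fold. Hspa2, an HSP70 protein best known from the testis, was the only cytosolic HSP70 gene listed, with 4.26 in siCon and 3.92 in siH19. The stress-induced genes Hspa1a and Hspa1b and the constitutive Hspa8 are not listed. In all, 4 of 19 annotated genes of this group were listed (background 11.1%), 2 in each direction (background 60.1% higher). With differences centred on the median of the listed features, Bag2 is at -0.02.

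J-domain proteins outside the ER lists were the largest group and held both of the genes that were lower by more than 1.5-fold. Dnaja1, a cytosolic J-domain partner of HSP70, was 1.83-fold higher in siH19, from 66.3 to 121 FPKM (log2 FPKM 6.05 and 6.92). Its feature, on the plus strand of chromosome 4 from 40720143 to 40757885, also carries the symbol of Mir207, a microRNA inside the gene near its 5′ end, and spans 37.7 kb against 15.0 kb for the annotated gene. Part of the extra length covers Smu1, on the opposite strand. The paper names a stranded library kit, but whether counting used strand is not given in the sources used here. The part of Smu1 in the value was not tested. Dnajc12, which binds the aromatic amino acid hydroxylases, was at 55.1% of its siCon level (log2 FPKM 2.14 and 1.28, chromosome 10, 63382443 to 63408840). Dnajc22, a membrane-spanning member, had the largest fold of all 23, 3.41-fold lower in siH19, but at levels far under 1 FPKM, 0.376 in siCon and 0.110 in siH19. With 1 added to each FPKM its difference is -0.31.

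The other 4 J-domain genes differed by less than 1.5-fold. Dnajb5 (log2 FPKM 4.48 in siCon and 4.92 in siH19) and Dnajc16 (3.11 and 3.59) were higher. Dnajc2, which assists newly made chains on the ribosome, was at 5.30 and 4.92, and Dnajc27, a small GTPase with a J domain, at 2.56 and 2.07. In the group, 3 of the 7 were higher (background 60.1%) and 4 lower, with a median difference of -0.38, beside 0.41 for all listed features with a symbol. Of 37 annotated J-domain genes in this group, 30 are not listed.

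The chaperonins were represented by 1 gene. Hspd1 (HSP60), which folds proteins inside mitochondria, was at 141 FPKM in siCon and 111 in siH19 (log2 FPKM 7.14 and 6.80), or 79.0% of the siCon level. Its partner Hspe1 (HSP10), which is transcribed from the same promoter region in the opposite direction, is not listed, and neither is any of 8 annotated genes with a symbol of the CCT family, the cytosolic chaperonin that folds actin and tubulin. GENCODE names 5 pseudogenes of Hspd1, 3 of Fkbp1a and 1 of Dnaja1. Reads shared with such copies could have been assigned to either, so these 3 levels are less certain. Fkbp1a, the immunophilin that binds tacrolimus and rapamycin and sits on the ryanodine receptor of muscle, was at 37.8 FPKM in siCon and 56.5 in siH19, a difference of 0.58. None of the 8 genes that the symbol rule takes for HSP90 and its co-chaperones was listed, beside 11.1% of all protein-coding genes.

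Hsf4 was the only heat shock factor listed, and Hsf1, Hsf2, Hsf3 and Hsf5 are not. This factor is best known from the lens. Its log2 FPKM was 1.13 in siCon and 1.81 in siH19, a 1.60-fold difference at low levels, 2.19 and 3.51 FPKM. With 1 added to each FPKM the difference of 0.68 is 0.50, under the cut-off. It lies on chromosome 8 from 105269801 to 105275995, on the plus strand. Hsf1 is the factor that drives the cytosolic heat shock response.

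**Figure D3:**
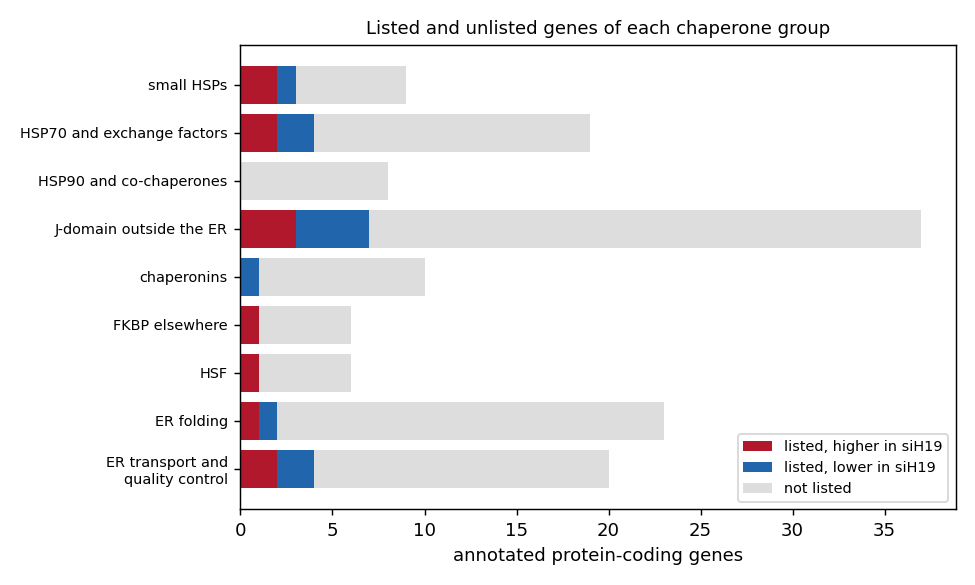
Number of annotated protein-coding genes in each chaperone group (horizontal axis), split into genes listed as higher in siH19 (red), listed as lower (blue) and not listed (grey). J-domain genes have the most listed members, 7 of 37, and HSP90 with its co-chaperones has 0 of 8. The heat shock factor bar of 6 genes includes Hsf2bp, a binding protein of HSF2.

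Among ER genes for folding, the principal chaperone was lower. Hspa5 (BiP), the HSP70 protein of the ER and the usual readout of the unfolded protein response, was at 380 FPKM in siCon and 302 in siH19 (log2 FPKM 8.57 and 8.24), or 79.6% of the siCon level. It lies on chromosome 2 from 34772090 to 34776529, on the plus strand. Pdia5, a disulfide isomerase, was higher at low levels, from 1.99 to 2.42. These are 2 of 23 annotated genes of the folding group. Hsp90b1, Hyou1, Calr and Canx, the other main ER chaperones, are not listed.

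The genes of ER import and disposal were split. Sec61a2, which encodes an alternative pore subunit of the SEC61 channel, had the largest increase of the 23 genes. It was at 9.32 FPKM in siCon and 20.8 in siH19 (log2 FPKM 3.22 and 4.38), 2.23-fold higher. Its feature covers 50.4 kb of chromosome 2 (5844962 to 5895383), while the annotated gene, on the minus strand, covers 24.4 kb. The rest of the interval holds Nudt5, on the opposite strand, and Gm13199, on the strand of Sec61a2. It also reaches into Cdc123, on that strand too, whose own listed feature differed by -0.40. The part of these neighbours in the Sec61a2 value was not tested. Sel1l, the adaptor that brings misfolded proteins to the ubiquitin ligase Syvn1, was also higher, with 4.14 in siCon and 4.71 in siH19. Sec62, which helps short secretory proteins through the channel and takes part in ER turnover, was lower, with 5.89 and 5.38. Edem2, which trims mannose from misfolded glycoproteins and so marks them for degradation, was at 4.18 and 3.77. The 4 genes summed to 98.0% of their siCon level. Xbp1 and Ddit3 (CHOP), transcription factors of the unfolded protein response, are not listed, nor are the Herpud genes.

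Genes with a heat shock element upstream were found among both the higher and the lower ones. Promoters were found for 19 of the 23 genes. They were not found for Dnajc2, Dnajc12, Dnajc22 and Hsf4. The heat shock element was searched as GAANNTTC or TTCNNGAA, each of which reads the same on both strands and can overlap the other. It occurred upstream of 6 of the 19 genes (31.6%), beside 14.5% of all 27025 genes with a promoter and 12.0% of the listed genes with one. Of these 6, Dnaja1 and Hspb3 were higher and Hspb1, Hspd1, Sec62 and Dnajc27 lower in siH19, with a median difference of -0.42. Of the 13 genes whose windows held no heat shock element, 9 were higher and 4 lower, with a median of 0.44. Of the 4 without a promoter entry, 1 was higher and 3 lower, with a median of -0.62. Among all listed features with a symbol, 55.2% of the 230 with the element were higher, and 60.8% of the 1655 with a promoter but no heat shock element. The run upstream of Hspd1, printed above, has 3 matches in 18 bases that begin 144 bases before 1 of its annotated starts. Other annotated starts of Hspd1 and of Dnaja1 had no match in their windows, and a gene was counted if any window held one. In Hspb1, 2 separate matches begin 117 and 97 bases before its start. A match is only a run of letters, and binding was not measured.

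Among the 19 genes, the ER elements were found upstream of Hspa5 alone. Its window held the ER stress element, which occurs upstream of 0.130% of all genes with a promoter, and the core of the UPR element (TGACGTG, both strands), which occurs upstream of 1.85%. They begin 65 and 157 bases before the start. The core of the amino acid response element (TGATGNAA, both strands), which factors of the ATF4 family bind, was found upstream of none of the 19, beside 3.91% of all genes.

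**Figure D4:**
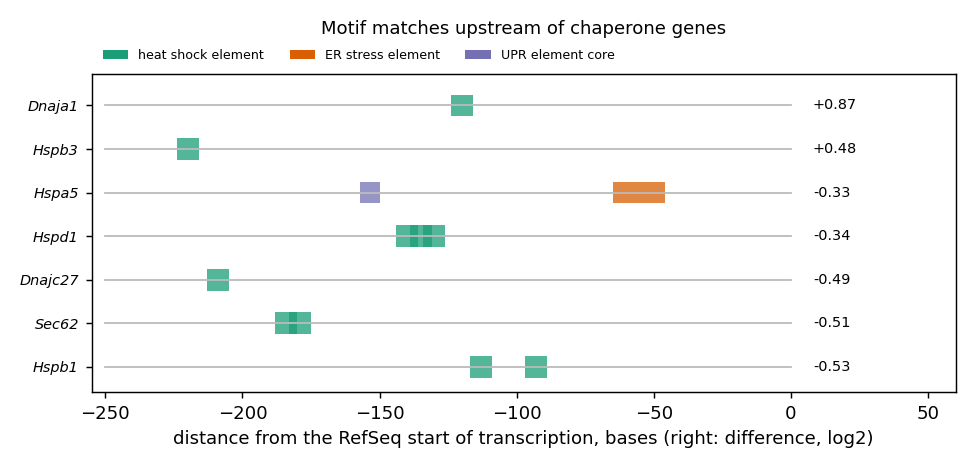
Positions of motif matches (coloured blocks) in the 250 bases before a RefSeq start of transcription (horizontal axis, in bases) for the 7 chaperone genes with a match. Genes are ordered by the difference of siH19 minus siCon in log2 FPKM, printed at the right, from 0.87 for Dnaja1 to -0.53 for Hspb1.

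Some of the genes are near neighbours. Of the 23, 5 lie on chromosome 4 (21.7%, beside 6.39% of the listed features with a symbol), 4 on chromosome 2 (17.4%, beside 7.96%) and 3 on chromosome 12 (13.0%, beside 2.71%). The 5 on chromosome 4 were higher in siH19, as were 58.9% of all listed features there. On chromosome 2, Sec61a2 and Fkbp1a were higher and Hspa5 and Edem2 lower, beside 58.6% of its listed features higher. On chromosome 12, Sel1l was higher and Hspa2 and Dnajc27 lower, beside 49.3% higher. These chromosomes, each with at least 3 of the genes, were picked after the values were seen. Dnaja1 and Bag1 are 199 kb apart. The coding genes wholly between them are B4galt1 and Spink4, both listed and both higher, B4galt1 by 0.56 and Spink4 from a log2 FPKM of 1.34 to 2.84. Hspb7 and Dnajc16 are 335 kb apart with 10 coding genes between them, of which 5 were listed. Spen (0.71), Fblim1 (0.52) and the joint feature of Ddi2 and Rsc1a1 (0.43) were higher, and Agmat (-0.85) was lower. These neighbours were named after their values were seen. Taking the longest annotated transcript of each, the 23 genes had a median of 8 exons and 2448 bases, against 9 exons and 3736 bases for the 2328 listed features with a symbol that could be matched.

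Other genes of protein folding were taken from 5 lists of genes that the symbol rule does not cover. As background, 11.1% of all annotated protein-coding genes were listed, and of all listed features with a symbol 60.1% were higher and 47.0% past 1.5-fold. Of 27 cytosolic co-chaperones and muscle chaperones, 6 were listed, 4 higher (66.7%, near the background) and 2 lower. Unc45b and Smyd1, which help myosin to fold and assemble in muscle, were higher by 0.51 and 0.42. They moved in the same direction as the myotube markers, whose part in this was not tested. Tomm34, a co-chaperone of HSP70 and HSP90, was the only one past 1.5-fold, going from 3.45 to 4.04 log2 FPKM. The prefoldin subunits, which hand actin and tubulin to the CCT chaperonin, were divided, with Pfdn2 at 0.43 and Pfdn4 at -0.47. Pdcl3, another partner of CCT, was at -0.43. Of 14 genes of mitochondrial folding and proteolysis, 1 was listed. It was Hscb, the J-domain protein of iron-sulfur cluster assembly, at 3.65 and 2.68, 1.96-fold lower in siH19.

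In the ER, 7 of 33 folding and glycoprotein quality control genes were listed (background 11.1%), 4 higher (57.1%, background 60.1%) and 3 lower. The 4 that were higher were Tmx4, a membrane-bound thioredoxin-like protein, at 1.21, Mogs, the first glucosidase, at 0.66, Man1b1, a mannosidase, at 0.50, and Uggt1, which senses incomplete folding, at 0.38. The 3 that were lower were Serpinh1 (HSP47), the collagen chaperone, at -0.35, Sdf2l1, a partner of BiP, at -0.50, and Ppic, a prolyl isomerase, at -0.66. Serpinh1 was the most abundant of them, at 8.47 and 8.12 log2 FPKM. Of 22 genes of ER-associated degradation with an annotated symbol, 8 were listed (background 11.1%), 3 higher (37.5%, background 60.1%) and 5 lower, and none reached 1.5-fold (background 47.0%). They ran from Erlec1, a lectin that recognizes trimmed glycoproteins, at 0.50, to Ngly1, which strips sugars from proteins sent to the proteasome, at -0.44.

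The unfolded protein and integrated stress response was listed for 9 of 33 genes (background 11.1%), 3 higher (33.3%, background 60.1%) and 6 lower. Known targets of ATF4, the main transcription factor of this response, lay on both sides. Fgf21, a secreted metabolic hormone that stressed muscle releases, went from a log2 FPKM of 1.89 to 3.61, 3.29-fold higher, and Chac1, which degrades glutathione, from 1.84 to 2.84. Atf3, Ddit4 and Sesn2, also known ATF4 targets, were lower, at -0.48, -0.45 and -0.55. Bcl2l11 (BIM), which promotes cell death, was at -0.61. Atf6, the ER stress sensor that acts on the element shown for Hspa5, was higher by 0.51, while Hspa5 itself was lower. Wfs1, an ER membrane protein, was at -0.33, and Eif2ak4 (GCN2), the kinase that senses lack of amino acids, at -0.49. Neither Atf4 nor the sensor genes Ern1 and Eif2ak3 are listed.

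**Figure D5:**
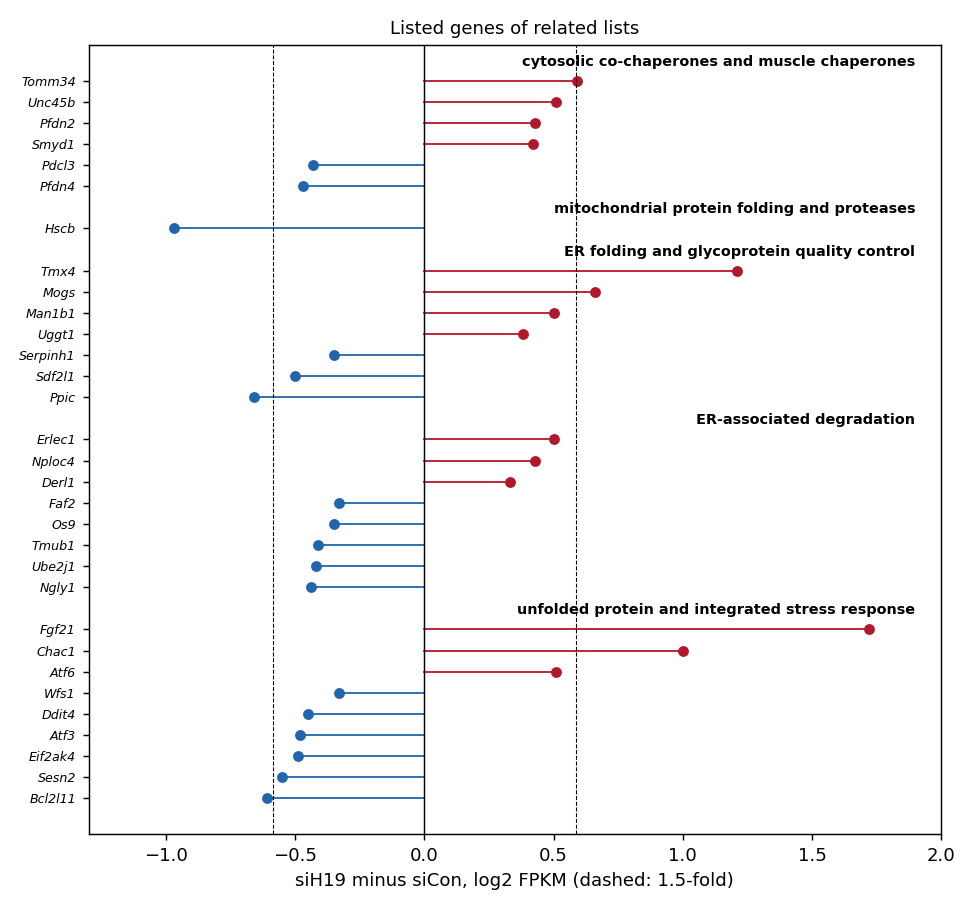
Difference of siH19 minus siCon in log2 FPKM (horizontal axis) for the listed genes of 5 related lists, red where higher and blue where lower in siH19, with dashed lines at 1.5-fold. Every list with more than 1 listed gene has genes on both sides of 0, and Fgf21 at 1.72 lies farthest out.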

How the data were processed

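Reads were aligned by the authors to the mm10 mouse genome (TopHat app 1.0.0, with TopHat2 2.0.7 in the submitters' processing notes), transcripts were assembled by Cufflinks, and Cuffdiff 2.1.1 tested siH19 against siCon. The deposited log2 values are the authors' log2 FPKM, 1 per group of 3 libraries, rounded to 2 decimals. The deposited columns of the authors' own comparison, a log2 fold change and a q-value, were not used. Depth per library is unknown from these values, and normalization between libraries was Cuffdiff's own.

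The difference was computed as siH19 minus siCon, with 1.5-fold as the cut-off. Genes were matched by symbol to GENCODE of GRCm38, and loci were counted from 1. All 23 genes were named, with both levels for those past the cut-off and the 5 most abundant. Related genes were named past the cut-off or as extremes of their list, and the others were added after their values were seen. The members and lists were chosen with earlier results of these data known. Alternatives were other cut-offs, a filter on low levels, 2 centrings, a pseudocount of 1, and leaving out joint features. The computations, in Python 3.11.15 with pandas 2.3.3, numpy 2.4.6 and matplotlib 3.10.9, were tested on simulated data.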

Additional observations from a re-analysis of the deposited data

How the results depend on the processing

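Of the 23 genes, 4 were higher and 2 lower by at least 1.5-fold. Without a fold cut-off the counts were 12 and 11, and at 2-fold 1 and 1. When features under 1 FPKM (log2 of 0) were removed, Dnajc22 dropped out and 1 gene was lower, and with log2(FPKM + 1) 3 were higher and 1 lower, without Hsf4 (0.50) and Dnajc22 (-0.31). Centring the differences on the median of the listed features with a symbol (0.41) gave 1 higher and 11 lower, and centring on their upper quartile (0.29) also gave 1 and 11. Dnaja1, Hspb7 and Hsf4 lost the cut-off under both. Either shift takes every lower listed feature with a symbol (1016 of 2549, 39.9%) past the cut-off, so that these counts are set largely by the shift. Direction changed for Bag2 under the median centring. Only a positive difference below the shift of 0.41 can change sign there, and Bag2 is the only such gene of the 23, so the other directions were not put to a test by it. The median difference of the 23 genes, 0.39 as reported, was -0.02 and 0.10 under these centrings, 0.353 with log2(FPKM + 1), and 0.03 with the joint feature of Dnaja1 and Mir207 left out, where 11 genes lie on either side. The share of the families that is listed and the promoter matches have no alternative here.

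No paired analysis was possible because the deposited values are 1 per group, and leaving out libraries was not possible for the same reason. Without values per library, it is unknown whether any difference rests on 1 culture.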
